A study of Rattus norvegicus with 16 samples.

Results

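The genes described here are 4 regulators of cell division in the kidney of the young rat: Ccnd1 (ENSRNOG00000020918), Pcna (ENSRNOG00000021264), Cdk1 (ENSRNOG00000000632) and Cdkn1a (ENSRNOG00000000521). They were chosen by identifier for their known roles, with earlier results of these data known, and the symbols came with that choice. All 4 of 4 were found among the 26689 genes of the deposited table, and all 4 passed the filter on low values, a mean level of at least 3. RNA from kidneys of male Wistar pups was sequenced, with 4 libraries in each of 4 groups. Pups lost the left kidney (uninephrectomy, UNX) on day 1 of life or on day 14 of life, or had a sham operation on day 1 or on day 14, and in every group the tissue was taken 3 days after surgery. No allele, transgene or drug is named for any group. Whether every library came from a pup of its own is not said in the labels, so the p-values rest on the spread among these libraries, which may be technical. They also do not say which kidney of a sham pup was sampled.

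Cells enter division when mitogens raise D-type cyclins, which switch on the kinases of the G1 phase. DNA is then copied in S phase with the help of a sliding clamp, and mitosis is driven by a single kinase bound to A- and B-type cyclins. Inhibitor proteins hold these kinases back, after DNA damage through p53 and also in cells that leave the cycle to differentiate. In the rat, nephrons go on forming for some days after birth, so dividing progenitors and tubule cells are part of the normal newborn kidney, and loss of one kidney is known to be followed by growth of the other. Of the 4 genes, Ccnd1 encodes the G1 cyclin D1, Pcna the clamp of the replication fork, Cdk1 the mitotic kinase and Cdkn1a the inhibitor p21.

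The promoters of 3 of the 4 genes were found in RefSeq's table (assembly GRCr8). They are shown because division genes are known to be switched by short promoter elements, and the levels of Cdk1 and Pcna are set side by side below. Ccnd1 had no entry. Each run covers 250 bases before and 50 after the start site the table uses, on the gene's own strand, and capitals mark a match on either strand to 1 of 6 motifs. The motifs were the cell cycle homology region CHR (TTTGAA or TTCGAA), the CCAAT box (CCAAT, or ATTGG on the other strand), the GC box (GGGCGG), the E2F core (TTGGCGC or TTCGCGC), the TATA box (TATAAA) and the p53 half-site.
Cdk1, chr20:19265043-19265342, plus strand: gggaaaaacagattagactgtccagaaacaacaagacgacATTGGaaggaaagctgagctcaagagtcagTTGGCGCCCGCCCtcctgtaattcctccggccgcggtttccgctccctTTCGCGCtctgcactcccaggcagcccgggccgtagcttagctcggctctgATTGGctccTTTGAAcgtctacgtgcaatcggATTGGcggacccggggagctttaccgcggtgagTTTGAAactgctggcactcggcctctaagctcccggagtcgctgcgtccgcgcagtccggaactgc
Pcna, chr3:139955771-139956070, minus strand: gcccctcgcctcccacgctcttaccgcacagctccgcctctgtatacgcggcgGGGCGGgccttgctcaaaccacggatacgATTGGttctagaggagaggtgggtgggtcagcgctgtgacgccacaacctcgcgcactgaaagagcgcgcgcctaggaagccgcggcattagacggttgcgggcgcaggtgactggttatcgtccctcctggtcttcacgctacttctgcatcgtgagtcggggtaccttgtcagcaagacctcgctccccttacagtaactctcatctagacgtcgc
Cdkn1a, chr20:7150682-7150981, plus strand: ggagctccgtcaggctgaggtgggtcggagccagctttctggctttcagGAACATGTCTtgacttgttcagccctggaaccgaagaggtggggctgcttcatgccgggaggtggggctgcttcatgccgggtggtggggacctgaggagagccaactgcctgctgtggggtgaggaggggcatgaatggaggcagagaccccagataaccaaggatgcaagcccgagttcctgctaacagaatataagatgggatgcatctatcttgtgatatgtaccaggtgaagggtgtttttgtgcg

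The Cdk1 window held 2 CHR matches, at −72 to −67 and −16 to −11 from the start site, 3 CCAAT boxes, 2 E2F cores and 1 GC box, the last directly beside the upstream E2F core in the unbroken run of capitals. The Pcna window held 1 GC box and 1 CCAAT box and no match to the other 4 motifs. In the Cdkn1a window the only match was 1 p53 half-site, at −201 to −192. Over all 33469 promoters of the table, CHR occurred in 19.7%, the CCAAT box in 37.5%, the GC box in 33.1%, the E2F core in 3.66%, the TATA box in 14.2% and the p53 half-site in 7.98%. These are matches of letters only, and other start sites of these genes were not examined.

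All levels below are rlog values, a log2 scale scaled for library depth, and all differences are rlog differences. Since rlog is not corrected for gene length, levels are compared between libraries of 1 gene and never between genes. Age separated the libraries on the first principal component (66.3% of the variance). On it, sham day 14 library 4 (24.5) and UNX day 14 library 1 (22.8) lay beyond the other day 14 libraries, at 14.8 to 18.2. The second (6.04%) set a pair of sham libraries apart, number 3 of day 1 at −14.5 and number 4 of day 14 at −12.9, while the other 14 lay between −2.58 and 5.96. The differences of Cdkn1a, Cdk1 and Pcna in which these sham libraries lie at an extreme are given with and without them. Absolute depth is unknown. From 151 genes the libraries could be put in order of depth, and the mean place of a group, with 1 the deepest, was 12.75 in sham and 5.25 in UNX kidneys of day 1, and 6.75 in sham and 9.25 in UNX kidneys of day 14. The label kidney could not be checked against marker genes, and other genes of the cell cycle could not be described, because the files do not pair identifiers with gene names.

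**Figure D1:**
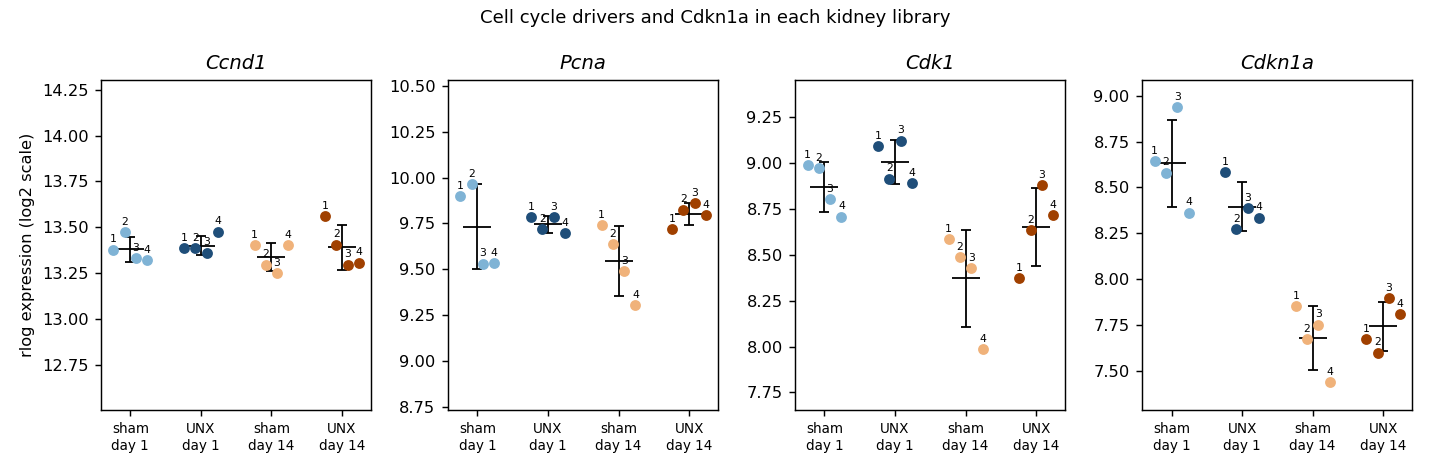
Each panel shows 1 gene, with the rlog level (log2 scale) on the y axis and the 4 groups on the x axis; points are libraries, numbered as in the labels, and bars are group means with SD (n = 4). All panels span the same range of the log2 scale. Cdkn1a and Cdk1 lay lower in every day 14 library than in every day 1 library of the same surgery. Ccnd1 stayed between 13.25 and 13.56 in all 16 libraries.

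The inhibitor Cdkn1a and the mitotic kinase gene Cdk1 fell with age, both in sham kidneys and in kidneys left after UNX, whereas Ccnd1 and Pcna did not pass the test in either comparison. Cdkn1a had the largest age difference of the 4 genes, and its level fell by 48.4% in sham kidneys. In UNX kidneys Cdkn1a fell by 36.4%. Cdk1 fell by 29.1% in sham and fell by 21.8% in UNX kidneys. These percentages were computed from rlog differences, which are shrunken, most in weakly expressed genes. The sham and the UNX age comparisons have no library in common. In each of them 2 of the 4 genes passed, both lower at the older age. Among all 14845 tested genes 45.1% passed between the sham groups and 45.9% between the UNX groups (limma, adjusted p under 0.05). Those lower at the older age were 22.5% and 22.9% of all tested genes. A share of 2 in 4 is close to the first background, and the count says nothing particular about the 4 genes.

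Cdkn1a stood at 8.65, 8.58, 8.94 and 8.36 in sham day 1 libraries 1 to 4, and at 7.85, 7.67, 7.75 and 7.44 in sham day 14 libraries 1 to 4. In the UNX kidneys it stood at 8.59, 8.27, 8.39 and 8.34 on day 1 and at 7.67, 7.60, 7.90 and 7.81 on day 14. The lowest day 1 value of either surgery thus lay above the highest day 14 value, and sham day 1 library 3 was the highest of all 16. The mean fell from 8.63 ± 0.24 to 7.68 ± 0.18 in sham kidneys (SD, n = 4 each), a difference of −0.95 (SE 0.11, 95% interval −1.18 to −0.73; limma adjusted p = 9.70e-07). It fell from 8.40 ± 0.14 to 7.74 ± 0.13 in UNX kidneys, a difference of −0.65 (95% interval −0.88 to −0.43; limma adjusted p = 6.42e-05). Without sham day 1 library 3 and sham day 14 library 4 the sham difference was −0.77 (limma adjusted p = 4.00e-06, over a range of 6.00e-07 to 6.78e-05 in all alternatives). Among all tested genes 1.44% had a larger sham age difference in either direction.

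Cdk1, which drives entry into mitosis, stood at 8.99, 8.97, 8.80 and 8.71 in sham day 1 libraries 1 to 4 and at 8.59, 8.49, 8.43 and 7.99 in sham day 14 libraries 1 to 4. In UNX kidneys it stood at 9.09, 8.92, 9.12 and 8.89 on day 1 and at 8.38, 8.63, 8.88 and 8.72 on day 14. Groups of different age did not overlap within either surgery, but in UNX kidneys the gap was narrow, from 8.88 to 8.89. In sham kidneys the mean went from 8.87 ± 0.14 to 8.37 ± 0.27 (SD, n = 4 each), a fall of −0.50 (SE 0.11, 95% interval −0.74 to −0.26; limma adjusted p = 0.00162). Without sham day 14 library 4, the lowest of all 16, and sham day 1 library 3, the fall of Cdk1 was −0.39 (limma adjusted p = 0.00611, over a range of 0.000825 to 0.00697 in all alternatives). In UNX kidneys the mean went from 9.01 ± 0.12 to 8.65 ± 0.21, a fall of −0.35 (95% interval −0.59 to −0.11; limma adjusted p = 0.0164). That call was lost without UNX day 1 library 3 (limma adjusted p = 0.0525), without UNX day 14 library 1 (adjusted p = 0.0738), where Cdk1 was lowest among UNX kidneys, and without UNX day 14 libraries 1 and 3 together (adjusted p = 0.0535), over a range of 0.00324 to 0.0738 in all 28 alternatives.

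Groups did not overlap in 2 of the 4 genes in both age comparisons, Cdk1 and Cdkn1a, against 36.7% of all tested genes between the sham groups and 45.7% between the UNX groups. The two-sided exact permutation p was 0.0286 for each, the smallest that 4 libraries against 4 can give. By mean place in the order of depth, the sham group of day 1 was shallower than that of day 14 and the UNX group of day 1 deeper than that of day 14, with overlap of single libraries in both. The part of depth in these differences was not tested. Age cannot be told apart from anything else that went with the day of surgery, such as the amount of tissue extracted, which the protocol gives as smaller for day 1. In whole kidney, fewer cells that express a gene and less RNA per cell cannot be told apart either.

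Pcna, the replication clamp, was not found to fall with age. Its values were 9.90, 9.96, 9.53 and 9.53 in sham day 1 libraries 1 to 4 and 9.74, 9.64, 9.49 and 9.31 in sham day 14 libraries 1 to 4. In UNX kidneys they were 9.79, 9.72, 9.78 and 9.70 on day 1 and 9.72, 9.83, 9.86 and 9.79 on day 14. The sham groups overlapped and held the highest and the lowest Pcna levels of the series, whereas all 8 UNX values lay within 0.17 of each other. The SD was 0.23 and 0.19 in the sham groups of day 1 and day 14, and 0.046 and 0.060 in the UNX groups (n = 4 each). Whether the spread differed between sham and UNX was not tested. The age difference was −0.19 in sham kidneys (95% interval −0.38 to 0.0064; limma adjusted p = 0.108) and 0.05 in UNX kidneys (95% interval −0.14 to 0.25; limma adjusted p = 0.663). The sham difference passed when sham day 1 library 3 (−0.26, limma adjusted p = 0.0336), sham day 1 library 4 (−0.25, adjusted p = 0.0388) or sham day 14 library 1 (−0.25, adjusted p = 0.0377) was left out, over a range of 0.0336 to 0.356 in 28 alternatives. It was smallest, −0.11, without sham day 14 library 4 or without sham day 1 library 2, and −0.18 without the pair that stood apart (limma adjusted p = 0.111).

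Ccnd1, the cyclin that links mitogens to the start of the cycle, was level across ages. Its group means were 13.4 ± 0.070 in sham day 1, 13.4 ± 0.051 in UNX day 1, 13.3 ± 0.076 in sham day 14 and 13.4 ± 0.12 in UNX day 14 kidneys (SD, n = 4 each). All 16 values lay between 13.25 and 13.56. The highest was UNX day 14 library 1. The age difference was −0.04 in sham kidneys (95% interval −0.15 to 0.08; limma adjusted p = 0.607) and −0.01 in UNX kidneys (95% interval −0.13 to 0.11; limma adjusted p = 0.895). These intervals hold no age difference of the size seen for Cdk1 in sham kidneys. Pooled over the 4 groups, the SD of Ccnd1 within groups was the smallest of the 4 genes, at 0.084 against a median of 0.090 over all tested genes. In both UNX groups, however, the SD of Pcna was below that of Ccnd1. The SD within groups was 0.15 for Pcna, 0.18 for Cdkn1a and 0.19 for Cdk1, and 91.5%, 94.8% and 96.4% of tested genes had a smaller one.

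**Figure D2:**
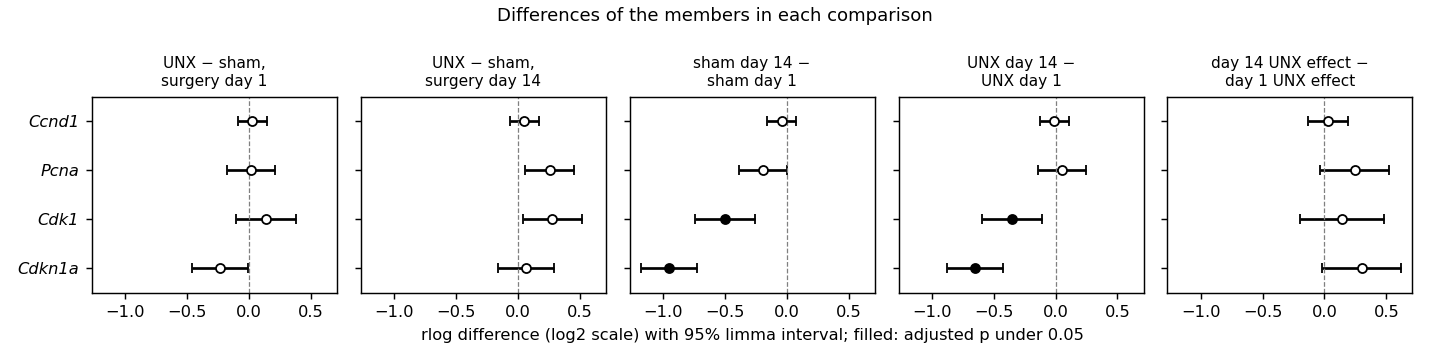
Each panel is 1 comparison, with the rlog difference (log2 scale) on the x axis and the 4 genes on the y axis; points are limma estimates, bars their 95% intervals, and filled points have an adjusted p under 0.05. The filled points are Cdk1 and Cdkn1a in both age comparisons, at −0.95 to −0.35; no point is filled in the comparisons of UNX with sham.

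UNX was compared with sham at each age to ask whether loss of a kidney altered these regulators 3 days later. None of the 4 genes passed the test after surgery on day 1 or on day 14, in the fit to all libraries or in any of the 28 alternatives for each. Among all tested genes 0.00674% passed for day 1 and 0.0539% for day 14 (limma, adjusted p under 0.05), so few genes of any kind were called. At an unadjusted limma p under 0.05 there was 1 of 4 for day 1, Cdkn1a, and 2 of 4 for day 14, Cdk1 and Pcna, where 7.15% and 14.4% of all tested genes reached that level. The UNX and sham values overlapped in all 4 genes at both ages, while groups without overlap were found in 4.51% of tested genes for day 1 and 6.97% for day 14. The median difference of the 4 genes was 0.02 for day 1 and 0.16 for day 14, against a median over all tested genes of −0.0025 and −0.00026.

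After surgery on day 14, Cdk1 and Pcna were the genes with the larger point estimates. Cdk1 had a mean of 8.65 in UNX and 8.37 in sham kidneys, a difference of 0.28 (SE 0.11, 95% interval 0.04 to 0.52; limma adjusted p = 0.276; exact permutation p = 0.171, n = 4 each). Of the 16 pairs of a UNX and a sham library, Cdk1 was higher in the UNX library in 13. Pcna had a mean of 9.80 in UNX and 9.54 in sham kidneys, a difference of 0.26 (SE 0.093, 95% interval 0.06 to 0.45; limma adjusted p = 0.222; exact permutation p = 0.0571, n = 4 each), and was higher in the UNX library in 15 of 16 pairs. Only sham library 1, at 9.74, exceeded a UNX value of Pcna, that of UNX library 1 at 9.72.

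Sham day 14 library 4, which stood apart on the second component, was the lowest of all 16 libraries for Cdk1, Pcna and Cdkn1a. Without it the day 14 difference was 0.15 for Cdk1 (limma adjusted p = 0.514) and 0.18 for Pcna (limma adjusted p = 0.380). Over all alternatives the difference ran from 0.15 to 0.37 for Cdk1, with adjusted p from 0.234 to 0.738, and from 0.18 to 0.32 for Pcna, with adjusted p from 0.171 to 0.738. At the 95% level, the intervals allow a Cdk1 level from close to that of sham kidneys to one higher by 0.52 on the log2 scale. Cdkn1a differed by 0.07 (95% interval −0.16 to 0.29; limma adjusted p = 0.841) and Ccnd1 by 0.05 (95% interval −0.06 to 0.17; limma adjusted p = 0.719).

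**Figure D3:**
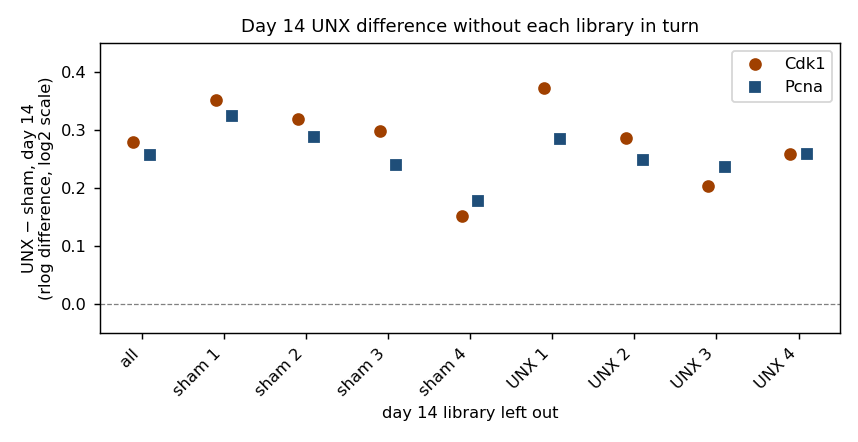
The y axis gives the UNX minus sham difference after surgery on day 14 (rlog, log2 scale) for Cdk1 (circles) and Pcna (squares), and the x axis names the day 14 library that was left out. All values lie above 0, and both genes have their lowest, 0.15 and 0.18, when sham library 4 is left out.

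After surgery on day 1 the largest difference was in Cdkn1a, with a mean of 8.40 in UNX and 8.63 in sham kidneys, a difference of −0.24 (SE 0.11, 95% interval −0.46 to −0.01; limma adjusted p = 0.687; exact permutation p = 0.143, n = 4 each). The UNX library was higher in 3 of 16 pairs. The difference was −0.13 without sham day 1 library 3, which held the highest Cdkn1a value (limma adjusted p = 0.818, over a range of 0.593 to 0.916 in all alternatives). The sham day 1 libraries were also the shallowest by mean place, and the part of depth in this difference was not tested. Cdk1 differed by 0.14 (95% interval −0.10 to 0.38; limma adjusted p = 0.856) and was higher in the UNX library in 12 of 16 pairs, and without sham day 1 library 4 the value was 0.084. For Pcna the difference was 0.01 (95% interval −0.18 to 0.21; limma adjusted p = 0.991). For Ccnd1 it was 0.03 (95% interval −0.09 to 0.14; limma adjusted p = 0.959), so a change of Ccnd1 by more than 0.14 lies outside the interval.

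Whether the effect of UNX depended on age was tested as the difference between the day 14 and day 1 effects, in which 0% of all tested genes and 0 of the 4 genes passed (limma), with 0 of the 4 and 10.7% of all tested genes at an unadjusted p under 0.05. The estimate was 0.30 for Cdkn1a (95% interval −0.02 to 0.62; limma adjusted p = 0.489), whose UNX mean was below sham on day 1 and above it on day 14. It was 0.24 for Pcna (95% interval −0.03 to 0.52; limma adjusted p = 0.524), 0.14 for Cdk1 (95% interval −0.20 to 0.48; limma adjusted p = 0.787) and 0.03 for Ccnd1 (95% interval −0.14 to 0.19; limma adjusted p = 0.926). Leaving out a day 14 library moved the Cdk1 value to 0.01 (sham 4), 0.07 (UNX 3), 0.21 (sham 1) or 0.23 (UNX 1). For Cdkn1a it was 0.20 without sham day 1 library 3 and 0.12 without both sham libraries that stood apart (limma adjusted p = 0.738, over a range of 0.361 to 0.767 in all alternatives). An effect of UNX that differs with age was not shown for any of these genes, and the intervals for Cdkn1a, Pcna and Cdk1 reach past 0.26, the Pcna difference on day 14.

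In order of level, Cdkn1a was highest in sham day 1, then UNX day 1, UNX day 14 and sham day 14 kidneys. Only the step between the ages, from UNX day 1 to UNX day 14, was larger than the spread, and the neighbours of 1 age overlapped. Cdk1 was highest in UNX day 1, followed by its sham group, and lowest in sham day 14, with UNX day 14 next above. Its neighbours overlapped at each step, including sham day 1 and UNX day 14. Pcna ran from UNX day 14 over UNX day 1 and sham day 1 to sham day 14, and Ccnd1 from UNX day 1 over UNX day 14 and sham day 1 to sham day 14, with overlap at each step.

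Among the day 14 libraries, those with more Cdk1 tended to have more Pcna, which passed by Pearson's r but not by Spearman's rho. Since the ages form separate clusters, relations were computed within each surgery day, over 8 libraries that include both surgeries, for 12 pairings of genes and days. After surgery on day 14, Pearson's r of Cdk1 and Pcna was 0.907 (exact permutation p = 0.00181, 0.0217 after Benjamini-Hochberg adjustment over 12 relations) and Spearman's rho was 0.905 (exact permutation p = 0.00456, adjusted 0.0548). Without sham library 4 and UNX library 3, the libraries farthest from the median of Cdk1, r was 0.679 over 6 libraries (exact permutation p = 0.129), so the relation rested in part on them. With group means subtracted, which removes a shift in mean between UNX and sham, r was 0.879 (adjusted approximate permutation p = 0.0217). It was 0.676 when sham library 4 and UNX library 1 were also left out (approximate permutation p = 0.139). These permutations moved deviations freely between UNX and sham libraries, so p-values after subtraction of group means are approximate, here and below. Of all tested genes, 0.95% had a higher r with Cdk1 on that day than Pcna had.

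On day 1, r of Cdk1 and Pcna was 0.723 (exact permutation p = 0.0418, adjusted 0.167) and rho 0.738 (exact permutation p = 0.0458, adjusted 0.275), which did not pass. It was 0.821 with group means subtracted (adjusted approximate permutation p = 0.0446), and 0.767 without sham library 4 and UNX library 4 (approximate permutation p = 0.0917). In the plot of Cdk1 against Pcna the sham day 1 libraries 1 and 2 were high and 3 and 4 low in both genes. Values of different genes in 1 library share its depth and scaling. With each library centred on the median of its tested genes, r of Cdk1 and Pcna was 0.721 on day 1 and 0.906 on day 14.

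An inverse relation of the inhibitor gene and the kinase gene was not found on either day, though so few libraries cannot exclude one. On day 14, r of Cdk1 and Cdkn1a was 0.83 (exact permutation p = 0.0125, adjusted 0.0751) and rho 0.690 (exact permutation p = 0.0694, adjusted 0.278), which did not pass. With group means subtracted it was 0.865 (adjusted approximate permutation p = 0.0353). It was 0.847 when sham library 4 and UNX library 1 were also left out (approximate permutation p = 0.0361, not adjusted). Without sham library 4 and UNX library 3 the value from the levels themselves was 0.283, so that value rested on those libraries. On day 1, r was −0.051 (exact permutation p = 0.903, adjusted 0.923), with sham library 3 combining the highest Cdkn1a with a low Cdk1 and Pcna. For Pcna and Cdkn1a r was 0.668 on day 14 (exact permutation p = 0.0705, adjusted 0.212) and −0.042 on day 1 (exact permutation p = 0.923, adjusted 0.923), where it was 0.811 without sham libraries 3 and 4. Ccnd1 had r of −0.373 to 0.598 with the other genes over both days, and its smallest adjusted exact permutation p was 0.269.

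**Figure D4:**
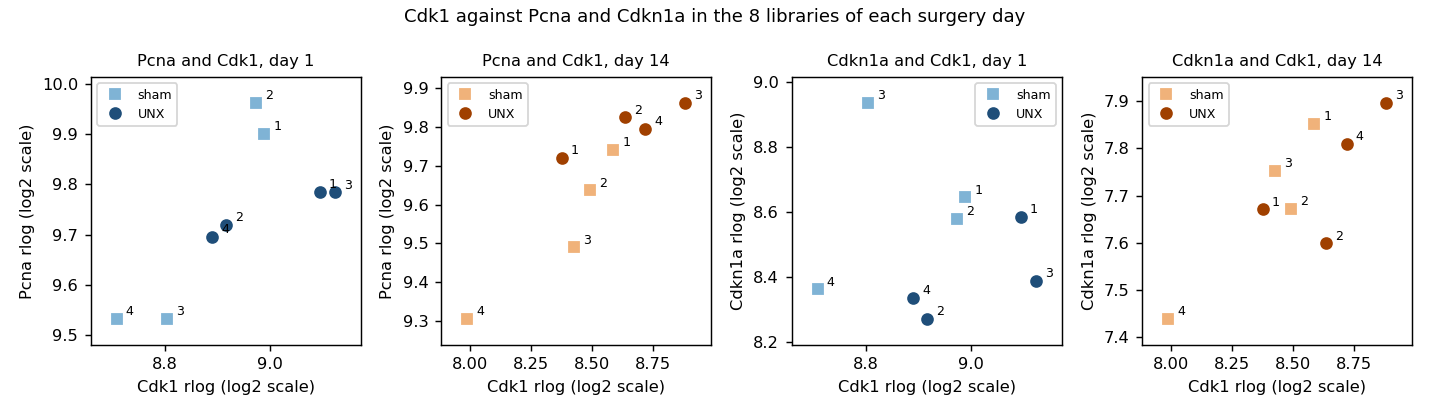
Points are libraries, numbered as in the labels, with the Cdk1 level on the x axis and the Pcna level (the 2 left panels) or Cdkn1a level (the 2 right panels) on the y axis, all as rlog on a log2 scale; squares are sham and circles UNX. On day 14 Pcna rises along Cdk1 (r = 0.907), with sham library 4 lowest on both axes, while on day 1 sham library 3 lies highest for Cdkn1a.

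Among the other 14844 tested genes, the one most like Cdk1 over the 16 libraries was ENSRNOG00000016377, with r = 0.987, given as a description over libraries of both ages. Its level was 7.64 ± 0.11 in sham day 1, 7.82 ± 0.094 in UNX day 1, 7.16 ± 0.25 in sham day 14 and 7.40 ± 0.22 in UNX day 14 kidneys (SD, n = 4 each), the same order of groups as Cdk1. The gene most like Cdkn1a was ENSRNOG00000016550, with r = 0.968, at 7.49 ± 0.10, 7.43 ± 0.047, 7.09 ± 0.11 and 7.12 ± 0.12 in the same groups. The 3 genes most like each member reached r of 0.975 to 0.987 for Cdk1, 0.962 to 0.968 for Cdkn1a, 0.917 to 0.944 for Pcna and 0.736 to 0.808 for Ccnd1.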

How the data were processed

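Kidney RNA from male rat pups was sequenced in 16 libraries, 4 per group. The deposited values are regularised-log (rlog) levels on a log2 scale, as the name of the table and its values show. Rlog evens out depth and shrinks differences, most in weakly expressed genes. In the submitters' processing notes BWA 0.7.14, STAR 2.4.0, Subread 1.5.1, DESeq2 and featureCounts are listed, without what each was used for. The genome build, annotation and strandedness of counting are not stated in the labels, and reads of genes that overlap or have a near-identical copy could be split or shared. Columns headed CO were taken for sham, matched by day and number. Read totals were not analysed here, so absolute depth is unknown. An order of depth was read from 151 genes with 1 isolated high value, whose remaining values fall as depth rises.

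Of 26689 genes, 22715 varied and the 14845 with a mean rlog of at least 3 were tested with limma 3.58.1 in R 4.3.3, with 1 mean per group, empirical Bayes with a mean-variance trend (residual degrees of freedom 12, prior 6.88). P-values are two-sided and were adjusted by Benjamini and Hochberg's method over all tested genes. The fit was tested on simulated data. Single values were compared by two-sided exact permutation tests (Python 3.11.15, numpy 2.4.6, scipy 1.17.1, pandas 2.3.3; plots with matplotlib 3.10.9). The members and lists were chosen with earlier results of these data known. The rule for names took the 4 members, and for each the most similar genes over the 16 libraries. The reference table matched 0 of 26689 identifiers, so the fixed lists of other cell cycle, p53 target and cell type genes could not be used. Alternatives changed the filter, scaling, variance model, libraries, threshold and a block for the library number.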

Additional observations from a re-analysis of the deposited data

How the results depend on the processing

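The 4 genes gave 20 values over the comparisons and 556 alternatives, of which 535 kept direction and side of the threshold, 5 lost and 3 gained a call and 13 changed sign, all of them values that had not passed. Fits without 2 libraries at once were, like the others, chosen with earlier results known; median centring of the correlations was added after the data were seen and changed no call. Without sham day 1 library 3 and sham day 14 library 4 the day 1 UNX difference of Pcna was −0.052 and the day 14 difference of Cdkn1a −0.014. Without UNX day 14 libraries 1 and 3 the age dependence of Ccnd1 was −0.0076 and 1 of the 4 genes passed between the UNX groups. When a difference of at least 0.5 was required, 1 of 4 passed in each age comparison (1234 and 1292 of all genes, for sham and UNX). Leaving out 1 library at a time gave −0.052 to 0.091 for Pcna on day 1, −0.0019 to 0.086 for Ccnd1 and −0.014 to 0.12 for Cdkn1a on day 14, −0.066 to 0.021 for Ccnd1 between the UNX ages, −0.028 to 0.060 for its age dependence, and 1 to 2 of the 4 genes between the UNX groups. With group means subtracted, r was 0.364 for Cdk1 and Cdkn1a on day 1 and −0.241 for Ccnd1 and Pcna on day 14.

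Of all tested genes, 1 passed for UNX on day 1 and 8 on day 14. The day 1 count was 0 without the filter, with a mean of at least 5, median centring, the robust model, the replicate block, a difference of at least 0.5 or without UNX day 14 libraries 1 and 3. It was 2 with array weights or only the groups compared, and 9 without the 2 sham libraries. The day 14 count was 0 without the filter or with only the groups compared, 3 without the trend, 2 with array weights, 58 at adjusted p under 0.10, 1 with a difference of at least 0.5, 3 without the 2 sham libraries and 1 without the 2 UNX libraries. The count for age dependence, 0, was 1 at adjusted p under 0.10 and 4 without the 2 sham libraries. Leaving out 1 library gave 0 to 2 for day 1, 0 to 90 for day 14 (90 when UNX day 14 library 4 was dropped, 22 for number 2 of sham day 14, 13 for number 2 of sham day 1, and 0 for UNX day 14 library 1 or 2 or number 3 of sham day 14) and 0 to 5 for age dependence (5 without sham day 1 library 3). The replicate block moved no call of the 4 genes. Same-numbered libraries of different groups did not deviate together. Correlations of the deviations from the group means ran from −0.229 to 0.119 over 24 pairs, 2 of them above 0.1, so the numbers were not taken to pair the samples. The causes were not tested. Read totals were not used, so what depth limits could not be set apart from the spread between libraries.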
